A study of Bostrychia moritziana with 3 samples.

Results

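The transcripts described here are the abundant ones that peaked in the tetrasporophyte of the red alga Bostrychia moritziana and were still detected in a gametophyte. They number 73 of the 36534 transcripts listed for at least 1 of 3 libraries. Each stood at 100 RPKM or more in the tetrasporophyte and at least 4 times above the higher of the male and female values, with that higher value above 0.3 RPKM. RPKM counts reads per kilobase of transcript, scaled to a fixed total of mapped reads per library, so levels can be set side by side between transcripts. A transcript missing from a listing was given 0.3 RPKM, but all 73 were listed in all 3 libraries. Transcripts at 10 RPKM or more in one gametophyte and at 0.3 RPKM or less in the other were left out by the rule.

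The study measured RNA in 1 library each of male gametophytes that were forming clusters of spermatangia, female gametophytes that were forming carpogonial branches, and tetrasporophytes with mature sporangia. All were labelled as strain 2746, grown as unialgal thalli under shared light, temperature and medium, and the tetrasporophytes had been raised from carpospores released after a cross in culture. The labels give no genotype, age or number of thalli per library, and they do not say whether thalli were pooled or libraries were made in batches. With 1 library per stage no spread between replicates can be estimated, so a difference given below separates these libraries only and carries no test.

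The life cycle of florideophyte red algae typically includes haploid gametophytes and a diploid tetrasporophyte. Male plants release non-motile spermatia from spermatangia, and female plants bear the carpogonium, the egg-bearing cell that a spermatium fertilizes. The tetrasporophyte forms tetrasporangia, in which meiosis yields the tetraspores that grow into the next gametophytes. A tetrasporophyte thallus also holds vegetative cells of the kinds that the gametophytes have. In whole thalli, more cells of a type and more RNA per cell cannot be told apart.

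The transcripts carry assembly numbers only, of the form ISGT_1195, and nothing in the files pairs them with gene names or sequences. No function, gene family or protein is therefore given to any of them, and no sequence is shown. How the reads of near-identical transcripts were shared out is not given in the sources used here, so values of transcripts that resemble each other in sequence are uncertain in a way that cannot be judged here.

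In the tetrasporophyte, 679 transcripts reached 100 RPKM, and 674 of these were above 0.3 RPKM in a gametophyte. Of the 674, 74 (11.0%) were at least 4 times above the higher gametophyte. One of these, ISGT_42671, was left out by the rule, with 515 RPKM in the tetrasporophyte, 18.95 in the female and 0.20 in the male. The 601 of the 674 that are not members, this transcript included, serve below as the comparison set, and 250 of them were lower in the tetrasporophyte than in the higher gametophyte. The 73 were thus selected on their tetrasporophyte level and its ratio to the higher gametophyte, and these values are a description.

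**Figure D1:**
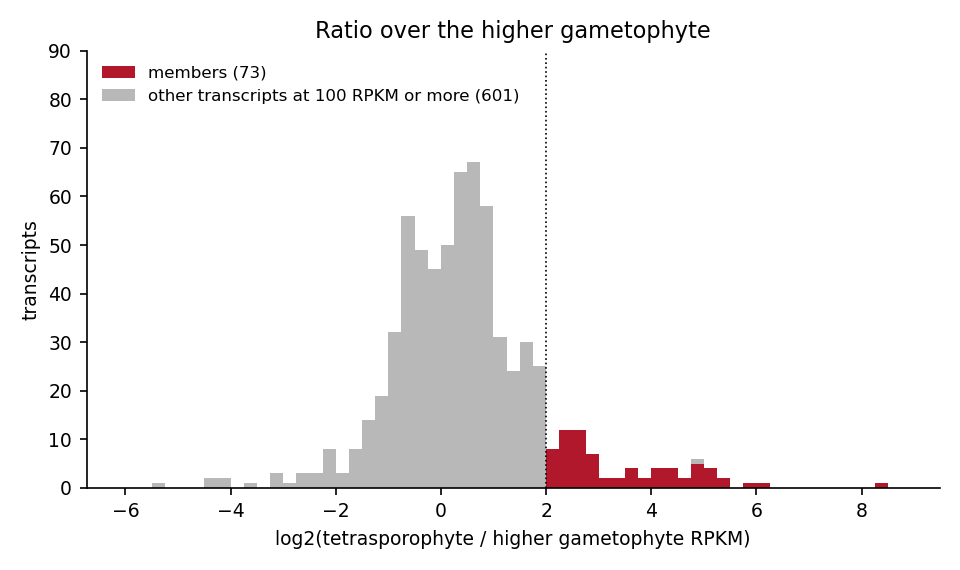
Number of transcripts (y axis) by log2 ratio of the tetrasporophyte value to the higher of the male and female values (x axis), for the 674 transcripts at 100 RPKM or more in the tetrasporophyte and above 0.3 RPKM in a gametophyte. The 73 members (red) start at a log2 ratio of 2 (dotted line), and 39 of them lie between 4-fold and 8-fold; the 601 others are grey, and the grey part beyond the line is the transcript left out by the rule.

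Over the 73, the ratio of the tetrasporophyte to the higher gametophyte had a median of 6.96, with quartiles at 5.59 and 20.5. Between 4-fold and 8-fold there were 39 transcripts, between 8-fold and 16-fold 10, between 16-fold and 32-fold 15, and at 32-fold or more 9. Just inside the limit stood ISGT_2671 (tetrasporophyte 205.62 RPKM, male 51.05 RPKM and female 2.96 RPKM), at 4.03-fold, and ISGT_667 (173 RPKM, 42.90 RPKM and 6.78 RPKM in the same order), at 4.04-fold. Just outside stood ISGT_4550, with 1111 RPKM in the tetrasporophyte, 279.89 in the male and 93.68 in the female, at 3.97-fold. At the limit of level, the lowest member had 101.84 RPKM in the tetrasporophyte, and the highest transcript below the limit that met the rest of the rule was ISGT_1354, with 99.73 RPKM.

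Levels in the tetrasporophyte ran from 102 to 1402 RPKM, with a median of 262.4 RPKM and quartiles at 155 and 549 RPKM. Together the 73 transcripts held 5.81% of the summed RPKM of the tetrasporophyte listing, 0.508% of the male's and 0.645% of the female's. The 22 at 500 RPKM or more made up most of this amount, since the 17 between 500 and 1000 RPKM held 40.7% of the group's tetrasporophyte sum and the 5 above 1000 RPKM held 20.7%. By rank, 24 of the 73 were among the 100 most abundant transcripts of the tetrasporophyte and 6 among the 20 most abundant. None of the 73 was among the 100 most abundant of the male or of the female, where the best placed ranked 285 and 169. The rule keeps each gametophyte value at least 4 times below the tetrasporophyte value. Lower shares and ranks in the gametophytes therefore follow in part from the selection.

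**Figure D2:**
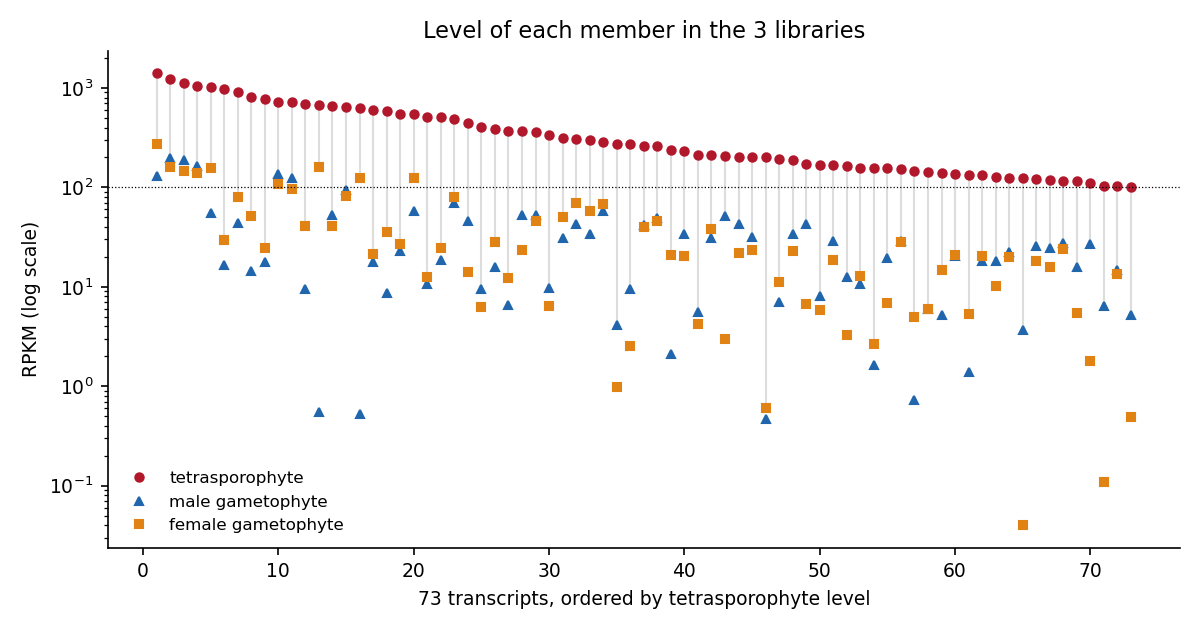
RPKM on a log scale (y axis) of each of the 73 transcripts (x axis, ordered by tetrasporophyte level) in the tetrasporophyte (circles), the male gametophyte (triangles) and the female gametophyte (squares), 1 library each. Tetrasporophyte values run from 102 to 1402 RPKM, while gametophyte values spread from 0.04 to 272 RPKM and lie under the tetrasporophyte value of their transcript throughout; the dotted line is the limit of 100 RPKM.

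The most abundant of the group was ISGT_42133, with 1402 RPKM in the tetrasporophyte, 131 in the male and 272 in the female. It ranked 7 in the tetrasporophyte, 503 in the male and 169 in the female. ISGT_41813 followed with 1234 RPKM in the tetrasporophyte, 198 in the male and 162 in the female. These transcripts were thus abundant in every stage and 5.16-fold and 6.22-fold above the higher gametophyte.

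The gametophyte levels behind the ratios differed widely. In 5 transcripts both gametophytes stood at 100 RPKM or more (107 to 272 RPKM), and their ratios ran from 5.16 to 6.30. Ratios start at 4 by the rule, and high gametophyte values leave less room above that, so this range is in part set by selection. A further 5 reached 100 RPKM in the higher gametophyte but not in the lower, with ratios of 4.23 to 6.62. In the largest class, 37 transcripts, both gametophytes lay between 10 and 100 RPKM, and the ratio ran from 4.19 to 40.1. Another 12 had 10 to 100 RPKM in the higher gametophyte and under 10 RPKM in the lower. Thus 59 of the 73 were detected at 10 RPKM or more in at least 1 gametophyte.

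The remaining 14 were under 10 RPKM in both gametophytes. Of these, 8 lay between 1 and 10 RPKM in both, with a tetrasporophyte median of 192 RPKM and ratios of 20.8 to 59.2. In 5 the lower gametophyte was under 1 RPKM and the higher between 1 and 10 RPKM. A single transcript, ISGT_41255, was under 1 RPKM in both, with 201.44 RPKM in the tetrasporophyte, 0.47 in the male and 0.60 in the female. Its ratio of 336 over the higher gametophyte was the largest of the 73, and it rests on gametophyte values that are close to the 0.3 RPKM at which the rule counts a transcript as detected. The next largest was that of ISGT_41851, at 67.5, with 276 RPKM in the tetrasporophyte, 4.09 in the male and 0.98 in the female.

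High ratios were not limited to the lower tetrasporophyte levels. Of the 24 transcripts at 16-fold or more, 9 had 100 to 200 RPKM, 7 had 200 to 500 RPKM and 8 had 500 to 1000 RPKM, while none of the 5 above 1000 RPKM reached this ratio. The most abundant at 32-fold or more was ISGT_1195, picked out after its values were seen, with 970 RPKM in the tetrasporophyte, 16.48 in the male and 29.72 in the female. It ranked 20 in the tetrasporophyte against 6845 in the male and 3505 in the female.

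Which gametophyte stood higher was not part of the rule, although the rule capped both values by the tetrasporophyte's level and removed the 1 transcript named above. The male value was higher in 39 of the 73 and the female value in 34, a split that turned to 36 and 37 with median-of-ratios scaling and to 34 and 39 with equal summed values. Without scaling, the male was higher in 215 of the 601 others and the female in 386. Over the 20061 transcripts with at least 1 RPKM in a gametophyte, the male was higher in 11989 and the female in 8059. For 48 of the 73 transcripts (65.8%) the gametophytes were less than 2-fold apart, and the share was 65.9% among the 601 others. The median male to female ratio on the log2 scale, with values below 0.3 RPKM raised to 0.3, was 0.10 over the 73, -0.34 over the 601 and 0.23 over the 20061 transcripts with at least 1 RPKM in a gametophyte. Both scalings lowered these medians, by 0.11 and 0.14.

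The male exceeded the female 2-fold or more in 13 of the 73 (17.8%), against a background of 15.1% of the 601 and 31.0% of the 20061. On the female side there were 12 (16.4%), against 19.0% and 11.2%. At 4-fold the counts were 7 in the male (9.59%, against 6.49% and 19.0%) and 6 in the female (8.22%, against 6.66% and 4.92%). The shares of the 73 thus lay near those of other transcripts abundant in the tetrasporophyte, with 1 library behind each value. The 601 are not matched to the 73 on gametophyte level. Their medians were 119 RPKM in the male and 143 in the female, against 20.64 and 21.35 RPKM over the 73.

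**Figure D3:**
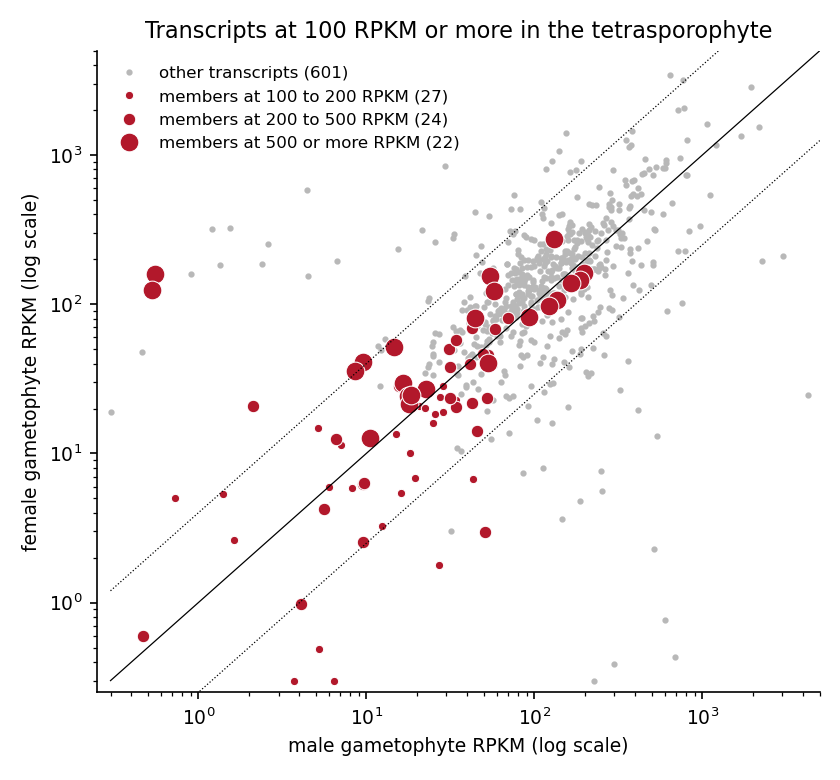
Female RPKM (y axis) against male RPKM (x axis), both on log scales with values below 0.3 raised to 0.3, for transcripts at 100 RPKM or more in the tetrasporophyte. Red points are the 73 members, larger where the tetrasporophyte level is higher, and grey points the 601 others; the solid line marks equal values and the dotted lines 4-fold, with 7 members at or beyond it on the male side and 6 on the female side.

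The transcripts furthest apart between the sexes were on the female side. ISGT_43039 had 673 RPKM in the tetrasporophyte, 159 in the female and 0.55 in the male (log2 male to female ratio -8.17). ISGT_42661 resembled it, with 627 RPKM in the tetrasporophyte, 125 in the female and 0.53 in the male (log2 ratio -7.88). Their ranks were 392 and 529 in the female, against 22797 and 23101 in the male. Both ratios rest on male values close to 0.3 RPKM. With a male value of 0.3 RPKM or less, the rule would have left both out. The other 4 transcripts at 4-fold or more on the female side were closer, with male values of up to 9.55 RPKM.

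On the male side the ratios were smaller, and their order depended on how values below 0.3 RPKM were treated. ISGT_42206 had 104 RPKM in the tetrasporophyte, 6.46 in the male and 0.11 in the female, which gives a log2 ratio of 4.43 once the female is raised to 0.3 RPKM. ISGT_2671, described above, followed at 4.11. On the listed values the largest male to female ratio was that of ISGT_14083, picked out after its values were seen, with 124 RPKM in the tetrasporophyte, 3.69 in the male and 0.04 in the female. Its log2 ratio was 6.53 as listed and 3.62 with the female raised to 0.3 RPKM, against 5.88 as listed for ISGT_42206. These are the 2 of the 73 with a gametophyte at 0.3 RPKM or less, and the rule admits such a transcript only where the other gametophyte is under 10 RPKM. At the other end, ISGT_3364 was closest to equal, with a male value of 5.98 RPKM, a female value of 5.99 RPKM and 144 RPKM in the tetrasporophyte. ISGT_42382 came next, with 20.64 RPKM, 20.88 RPKM and 138 RPKM in the same order.

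The direction between the sexes differed along the tetrasporophyte level. Among the 22 transcripts at 500 RPKM or more, the female was higher in 15 (68.2%), against 69.4% of the others of that level. It was at least 2-fold higher in 8 (36.4%), against 45.2% of those others, and the male was that far above it in 0, against 17.7%. Between 200 and 500 RPKM the male was higher in 14 of 24 (58.3%), against 29.3% of the others. Under 200 RPKM the male was higher in 18 of 27 (66.7%), against 39.9% of the others. There it exceeded the female 2-fold or more in 8 (29.6%), against 14.8%, and the female exceeded it so in 3 (11.1%), against 13.4%. With median-of-ratios scaling and with equal summed values the female was again higher in 15 of the 22, and the male was higher in 17 (63.0%) and 15 (55.6%) of the 27, against 34.9% and 33.0% of the others. Over the 20061 transcripts with at least 1 RPKM in a gametophyte, at any tetrasporophyte level and without scaling, the male was higher in 11989 and the female in 8059. The lean of the others to the female is thus not that of all transcripts. Without scaling, the group's lean to the male under 500 RPKM had the same direction as that of all transcripts. Within these classes the rule caps the gametophyte values of the group and not those of the others. The shares are therefore not of transcripts alike in gametophyte level. The differences between the group and the others were not tested, and the level classes were drawn after the data were seen.

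Across the 73 transcripts the male and female values had a Spearman correlation of 0.63, against 0.50 across the 601 others. Both values are capped by the tetrasporophyte level in the first set and not in the second, and transcripts are not independent replicates.

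Position along the assembly numbers was not used by the rule either. Transcripts at 100 RPKM or more in the tetrasporophyte fell in 2 stretches, up to number 15935 and from number 38960 to the end at 43049, with none among the 17732 transcripts listed between. The higher stretch held 44 of the 73 transcripts (60.3%) and 203 of the 601 others (33.8%). Put the other way, 17.8% of the abundant transcripts of the higher stretch belonged to the group, against 6.79% in the lower stretch. What the order of the numbers stands for is not given in the sources used here. This boundary was drawn after the data were seen.

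**Figure D4:**
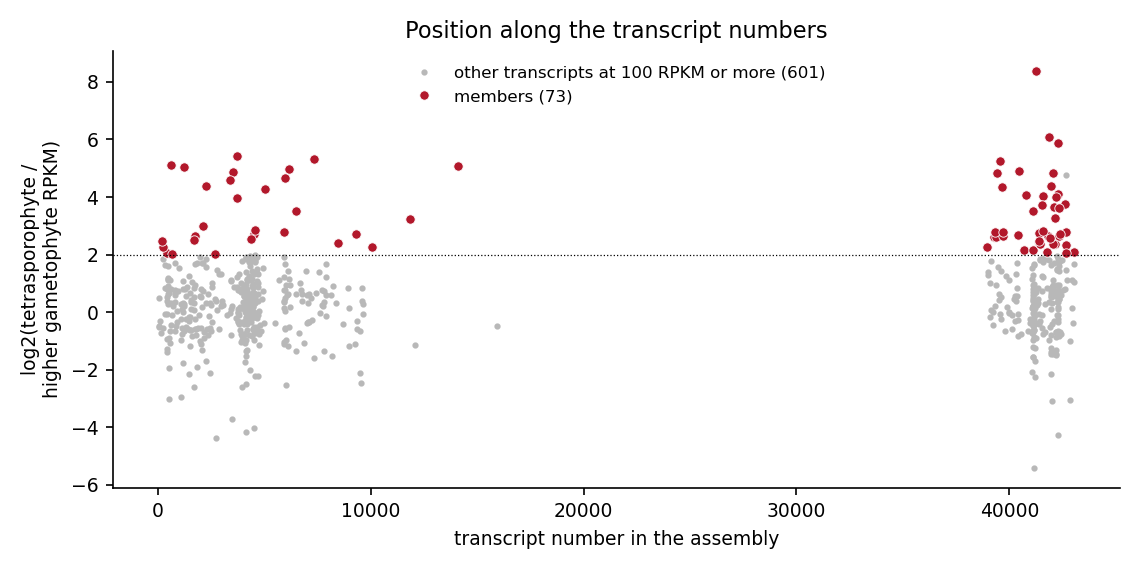
Log2 ratio of the tetrasporophyte value to the higher gametophyte value (y axis) against transcript number in the assembly (x axis), for the 73 members (red) and the 601 other transcripts at 100 RPKM or more in the tetrasporophyte (grey). The points form 2 stretches, and the stretch from number 38960 on holds 44 of the members and 203 of the others.

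Within the group, the 44 transcripts of the higher stretch had a tetrasporophyte median of 304 RPKM, and the 29 of the lower stretch had 203 RPKM. The comparison set, limited to 100 RPKM or more, showed no such gap, with medians of 165.44 and 165.18 RPKM. Over all transcripts of each stretch, at any level, the tetrasporophyte medians were 15.23 RPKM in the higher and 8.84 RPKM in the lower. A higher tetrasporophyte level in the higher stretch is thus not particular to the group. At 500 RPKM or more there were 15 of the 44 transcripts in the higher stretch and 7 of the 29 in the lower. The median ratio over the higher gametophyte was 6.88 and 8.01, respectively, and ratios of 16-fold or more occurred in 13 of 44 and 11 of 29. Between the sexes the stretches were alike in count, with the male higher in 24 of 44 and in 15 of 29.

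Few of the 73 were next to each other. ISGT_42132 and ISGT_42133 were the only members at neighbouring numbers. ISGT_42132 had 447 RPKM in the tetrasporophyte, 45.81 in the male and 14.06 in the female, so that it was higher in the male, while ISGT_42133 was higher in the female. Within a distance of 5 numbers there were 14 transcripts in 6 runs, 4 of 2 and 2 of 3. By share, 2.74% of the 73 had another of the 73 at the next number and 19.2% within 5, while 25.5% and 60.7% of the 674 abundant transcripts had another abundant one there. The larger set is denser along the numbers, so these shares cannot be compared directly. In one run, picked out after its values were seen, ISGT_41412, ISGT_41417 and ISGT_41422 stood at 191, 360 and 259 RPKM in the tetrasporophyte and at 5.56-fold, 6.79-fold and 5.22-fold over the higher gametophyte. In another, also picked out, ISGT_42656 was higher in the male (26.97 RPKM against 1.79 RPKM), and ISGT_42661, described above, in the female.

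The transcripts directly before or after the 73 had a tetrasporophyte peak about as often as those beside other transcripts. Of 140 such neighbours that were listed, 6 (4.29%) were at least 4 times higher in the tetrasporophyte than in the higher gametophyte, against 3.74% of the neighbours of the 601 others and 3.33% of all neighbours. Their median log2 ratio was -0.19, against -0.21 and -0.27.

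Similar values were found between transcripts far apart in number. Of the 2628 pairs that the 73 transcripts form, 14 pairs, made of 21 transcripts, had all 3 values within 1.2-fold of each other. The closest pair lay 987 numbers apart and the second closest 37006. In the second closest pair, ISGT_4374 and ISGT_41380 had tetrasporophyte values of 723 and 727 RPKM, male values of 123 and 136 RPKM and female values of 96.85 and 107 RPKM. The number of pairs is not set beside that of another set of transcripts of like level. These pairs were looked for after the data were seen, and whether their members are copies of a gene was not tested.

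The same rule applied to the other libraries found 128 transcripts that peaked in the male and 49 that peaked in the female. As a share of the transcripts at 100 RPKM or more in the peak library, the tetrasporophyte group made up 10.8%, the male group 17.8% and the female group 6.81%. Ratios of 16-fold or more were reached by 24 of the 73 (32.9%), by 24 of the 128 (18.8%) and by 7 of the 49 (14.3%). The median ratios were 6.96, 9.82 and 6.26. In the tetrasporophyte group the lower libraries were within 2-fold of each other for 65.8%, against 35.9% in the male group and 57.1% in the female group. Each of these shares compares a different pair of libraries, so they are not directly comparable. For the male and female pair, the share among the 601 others was 65.9%, the same as in the tetrasporophyte group. From number 38960 on lay 46.1% of the male group, against 36.3% of the other transcripts at 100 RPKM or more in the male, and 16.3% of the female group, against 32.5% in the female. With 1 library per stage these differences between groups were not tested.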

How the data were processed

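RNA was measured in 1 library per life stage. Per the file headers, the deposited values are RPKM, with 1 value per transcript and 2 decimals. TRI Reagent was used to extract total RNA and standard Illumina protocols to make the libraries, per the labels. How reads were assembled, aligned and counted, the lengths of transcripts and the number of reads were not given in the sources used here, so the depth is unknown and no counting interval could be set.

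The 3 listings were joined on the transcript identifier, without further scaling, and the selection rule was applied to the joined table. A missing value was set to 0.3 RPKM, and values below 0.3 were raised to it in male to female ratios, which makes those ratios smaller than the listed ones. The sexes were called apart at 2-fold or 4-fold. Named transcripts were the 2 with the highest level, largest and smallest ratio, most male, most female and most equal values, and neighbouring pairs; others are marked as picked out. The members, the lists and the comparisons were chosen with earlier results of these data known. Alternatives were 2 scalings, other limits of level and ratio, pseudocounts of 1 and 0.1 RPKM, and other distances between numbers. Calculations used Python 3.11.15, numpy 2.4.6 and pandas 2.3.3.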

Additional observations from a re-analysis of the deposited data

How the results depend on the processing

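The size of the group followed its limits. It held 131 transcripts with a minimum of 50 RPKM, 46 with a minimum of 200 RPKM, 183 at 2 times and 34 at 8 times the higher gametophyte. Scaling changed it less: median-of-ratios scaling gave 66 transcripts, of which 61 were among the 73, and equal summed values gave 78, of which 71 were. Keeping transcripts high in one gametophyte only gave 74, and setting missing values to 0 gave 73. Counts at 2-fold between the sexes stayed within 12 to 14 under the scalings and pseudocounts tried. At 4-fold, the count on the female side was 3 with a pseudocount of 1 RPKM, which shrinks ratios of low values by construction, against 6; under the other settings the counts were 6 or 7 on either side. Members with another member nearby numbered 4 within a distance of 2 and 14 within 5. The share in the higher stretch of numbers was 45.4% at 2 times the higher gametophyte, against 33.4% of the other abundant transcripts, and lay between 50.4% and 67.4% under the other limits and scalings, which were chosen after the data were seen. No paired analysis was possible because each stage has 1 library and no result comes from a test. Read depth limits the lowest gametophyte values most, and without read totals their counting error is unknown.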
